A study of Mus musculus with 6 samples.

Results

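The domain described here is a 2.5 Mb stretch of mouse chromosome 17, from position 43000001 to 45500000 of the mm10 assembly, that holds Rcan2, Clic5, Runx2 and Supt3. Its members are the accessible regions found in either of the 2 deposited peak lists within these bounds, and there were 619 of them among 239675 regions on all chromosomes. A region is a peak, or a run of peaks that overlap by at least 1 bp, and it was called shared where both lists had a peak in it, and FM-only or KO-only where 1 list did. The bounds were chosen from these same peaks, for their many FM-only regions. The counts of shared, FM-only and KO-only regions inside the bounds are therefore given as a description, with no test.

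The study profiled open chromatin by ATAC-seq, a method that tags accessible DNA with a transposase, in embryoid bodies grown from mouse epiblast stem cells. Epiblast stem cells correspond to the epiblast of the implanted embryo, and Mixl1 is a paired-type homeobox transcription factor of the primitive streak, mesoderm and endoderm. One group carried a Mixl1 knockout (KO, 3 libraries). The other came from lines with inducible Mixl1 and received doxycycline at 1 µg/mL for 24 h (3 libraries). Both were day 2 embryoid bodies, labelled as serum-differentiated, from stem cells kept on irradiated embryonic fibroblasts with bFGF and activin A, and each library was made from 50000 cells with 11 cycles of PCR. No inducible line without doxycycline is among the 6 libraries and doxycycline is recorded for the inducible lines only, so Mixl1, the drug and the difference between lines cannot be told apart. The labels do not say whether the 3 libraries of a group came from separate cultures.

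Each group has 1 deposited peak list and no list per library, so no value below has an error between replicates. The list named KO was taken as the knockout, and the list named FM was taken as the induced group because only that group remained; the labels do not explain FM, and the lists are called FM and KO throughout. Peaks near an end of the gene were found for 7 of 8 epiblast markers in FM and 8 of 8 in KO. Nanog, a pluripotency factor, had none in FM. Peaks were found for 6 of 8 fibroblast markers and for 5 of 8 osteoblast markers in each list. The osteoblast genes Ibsp, Spp1 and Phex had none in either list. No share over all genes is given beside these counts, so they do not identify the cells.

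Runx2 encodes the transcription factor that directs osteoblast formation, and it is transcribed from a distal and a proximal promoter. Supt3, which encodes a subunit of the SAGA coactivator complex, starts inside Runx2 and runs in the opposite direction. Rcan2 encodes a regulator of the phosphatase calcineurin, Clic5 an intracellular chloride channel protein found at the actin-rich cell cortex, and Cdc5l a core protein of the spliceosome. Runx, Clic and Rcan genes lie side by side in 3 related segments of vertebrate genomes.

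The DNA just before the starts of 4 of these genes is shown because their starts behaved differently in the 2 lists: the annotated distal start of Runx2 had no peak in either list, Rcan2 had more fragments in FM, and Supt3 and Cdc5l had more in KO. Sequences are from RefSeq on GRCm38.p6, the assembly also called mm10, and are written 5′ to 3′ along the gene. Each ends at the base before the annotated gene, within the 250 bases before its start. Capitals mark matches to a RUNX hexamer (TGTGGT), a paired homeodomain site (TAATNNNATTA), a GC box (GGGCGG) or a CCAAT box (CCAAT) on either strand.
Runx2, chr17:44814798-44814877, minus strand: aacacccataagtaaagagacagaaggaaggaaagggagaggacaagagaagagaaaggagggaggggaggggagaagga
Supt3, chr17:44776916-44777117, plus strand: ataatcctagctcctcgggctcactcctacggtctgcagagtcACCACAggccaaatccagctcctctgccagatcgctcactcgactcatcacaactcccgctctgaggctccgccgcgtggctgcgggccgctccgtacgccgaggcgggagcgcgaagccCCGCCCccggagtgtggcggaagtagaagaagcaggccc
Rcan2, chr17:43801102-43801351, plus strand: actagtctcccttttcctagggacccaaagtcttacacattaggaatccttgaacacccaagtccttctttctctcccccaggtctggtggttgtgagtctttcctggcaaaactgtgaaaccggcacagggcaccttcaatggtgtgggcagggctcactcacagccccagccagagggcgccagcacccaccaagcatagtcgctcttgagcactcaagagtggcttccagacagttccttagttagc
Cdc5l, chr17:45433708-45433957, minus strand: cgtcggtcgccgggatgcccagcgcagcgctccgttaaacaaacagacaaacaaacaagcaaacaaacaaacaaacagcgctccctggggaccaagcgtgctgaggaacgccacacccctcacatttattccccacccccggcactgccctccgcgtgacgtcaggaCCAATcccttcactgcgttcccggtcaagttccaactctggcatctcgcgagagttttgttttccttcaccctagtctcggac
The 250 bases before the Supt3 start held 1 RUNX hexamer and 1 GC box, and those before the Cdc5l start held 1 CCAAT box. Those before the first Rcan2 start held none of the 4 motifs. The 250 bases before the Runx2 start held 1 RUNX hexamer, in bases that lie inside the annotated gene and are not printed. Of 32851 such windows before annotated starts genome-wide, 14.0% held the RUNX hexamer, 32.7% the GC box, 33.8% the CCAAT box and 0.463% the paired homeodomain site. The last was in none of these windows. GC content was 68.8% in the window of Supt3 and 44.8% in that of Runx2, against a median of 52.4% over all windows. These matches describe the letters only.

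Across the domain the FM list had 581 peaks, 232.4 per Mb, and the KO list had 207, 82.8 per Mb. This is 2.81 FM peaks for each KO peak. The 619 regions comprised 159 shared, 418 FM-only and 42 KO-only regions, so FM-only regions were 67.5% of the domain and KO-only regions were 6.79%. On all chromosomes 43.6% of regions were FM-only and 16.0% were KO-only. Of the regions found in 1 list, 90.9% were FM-only in the domain (exact Clopper-Pearson 95% interval 87.9 to 93.3), against 73.2% on all chromosomes. Here and below these intervals cover counting only. FM peaks covered 237 kb of the domain and KO peaks 90.7 kb.

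Set against the gene-rich DNA after it, the domain had a like density of FM peaks and a lower density of KO peaks. In the 5 Mb after the domain the FM list had 230.0 peaks per Mb and the KO list had 161.4 per Mb. Those 5 Mb held 595 shared, 524 FM-only and 189 KO-only regions, an FM-only share of 73.5% (70.1 to 76.7). The 5 Mb before the domain were poor in peaks, with 138 in FM and 54 in KO, and held 100 FM-only and 17 KO-only regions (85.5%, 77.8 to 91.3). Of the FM peaks in the domain, 28.1% overlapped a KO peak, against 54.4% after it and 27.5% before it. Of the KO peaks in the domain, 79.7% overlapped an FM peak, against 76.6% after it and 68.5% before it. On the first measure the domain was thus like the DNA before it.

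**Figure D1:**
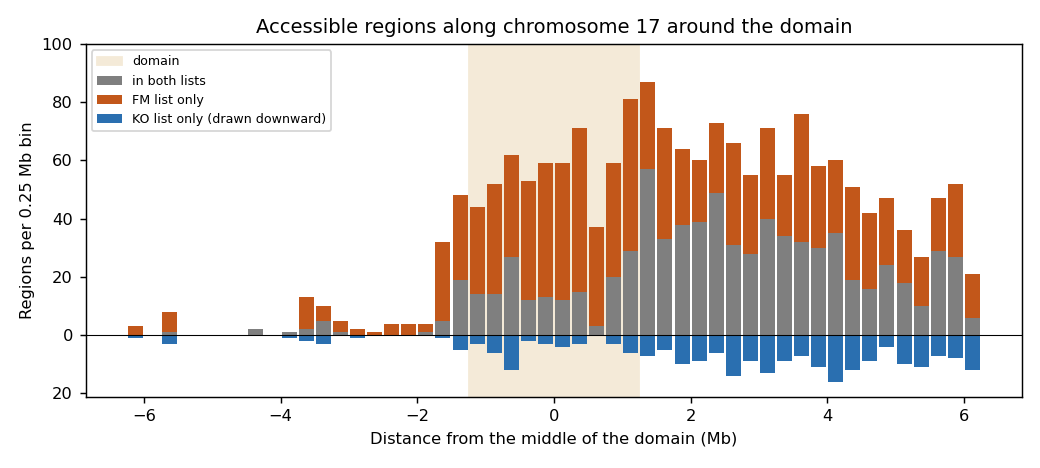
Regions per 0.25 Mb bin on chromosome 17, by distance in Mb from the middle of the domain (shaded), with shared and FM-only regions stacked upward and KO-only regions drawn downward. FM-only regions outnumber KO-only regions in 10 of 10 bins of the domain, and the bins to its left hold few regions of any class except the last 2 before the edge, which hold 33 and 53.

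In bins of 0.25 Mb, FM-only regions outnumbered KO-only regions in 10 of 10 bins of the domain, with shares between 74.5% and 100%. In the 20 bins after the domain the shares ran from 55.6% to 88.4%, so the 2 ranges overlapped. Before the domain, the bin that ended 0.25 Mb from its left edge had 27 FM-only and 1 KO-only regions, a share of 96.4%. The last 0.5 Mb before the domain held 56 FM-only and 6 KO-only regions. Their share of 90.3% (80.1 to 96.4) was like the 90.9% of the domain, so a high share was not confined to the domain. The lowest bin of the domain began 0.5 Mb after its left edge, a gene-dense bin with 35 FM-only and 12 KO-only regions. The highest ran from 44.75 to 45 Mb, over the 5′ part of Runx2 and the first part of Supt3, where FM had 37 peaks and KO had 3.

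Neither edge of the domain was sharp. The bin just inside the left edge had 46 FM and 17 KO peaks and a share of 90.9%, and the bin just outside it had 49 and 24 peaks and a share of 85.3%. At the right edge the inner bin had 82 FM and 36 KO peaks (89.7%), and the outer bin had 92 and 68 (81.1%). No peak crossed either edge.

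FM-only regions of the domain were weak peaks. Their fold enrichment, the peak caller's ratio of the pileup of fragments to the local background, ran from 1.43 to 2.99 with a median of 1.91. Their pileup at the summit, recovered from the fold and the p-value, ran from 45 to 164 fragments, with a median of 70.5. Their median width was 292 bp, against 555 bp for shared regions. On all chromosomes, FM peaks without a KO peak had a median fold of 1.86, pileup of 67.0 and width of 281 bp. Weak FM-only peaks were thus not particular to the domain. The 42 KO-only regions were of like strength, with folds from 1.55 to 3.02 (median 1.88), pileups from 46 to 134 (median 59.5) and a median width of 231.5 bp. Shared regions reached folds of 6.85 in FM and 8.47 in KO.

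The share of FM peaks with no KO peak fell as the peaks grew stronger. Among FM peaks with a −log10 q between 2 and 5, 85.9% lacked a KO peak in the domain, against 67.3% in the 5 Mb before and after it, pooled. Between 5 and 10 the values were 74.6% and 51.4%, and between 10 and 20 they were 47.7% (42 of 88 peaks) and 20.5%. At 20 and above, 0 of 29 FM peaks in the domain lacked a KO peak, against 0.862% in the flanks. On all chromosomes the shares in these classes were 70.6%, 52.0%, 20.6% and 0.968%. In each of these classes below 20, FM peaks of the domain lacked a KO partner more often than flanking FM peaks of like q. At 20 and above, almost all FM peaks had a KO partner on all chromosomes too, so that result was not particular to the domain. The bounds were chosen for their many FM-only regions, so this is a description. Of the 1288 flanking FM peaks, 1150 lay after the domain, and the flanks were not split by q.

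**Figure D2:**
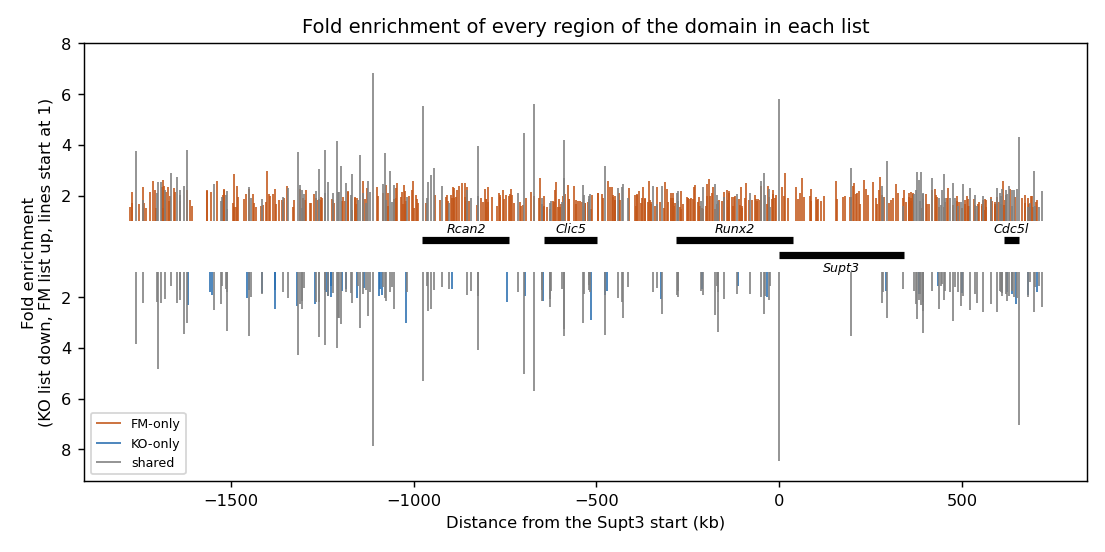
Fold enrichment of every region of the domain by distance in kb from the Supt3 start, with the FM list drawn upward and the KO list downward from a fold of 1, and the bodies of the larger genes marked. FM-only regions stay below a fold of 3 along the whole domain, and the tallest lines are shared regions.

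Runx2 held the most regions of any gene in the domain. Its 318.8 kb body (44495987 to 44814797) overlapped 18 shared, 65 FM-only and 3 KO-only regions, a share of 95.6% and 20.4 FM-only regions per 100 kb. The FM-only regions in Runx2 had folds from 1.48 to 2.88 and pileups from 49 to 106 fragments. They were spread along the gene and were not gathered at one site.

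The annotated distal start of Runx2, at position 44814627, had no region of either list within 250 bases before it and 50 after it. The table of starts used holds no proximal start of Runx2, so none of the regions inside the gene was assigned to that promoter or excluded from it. The region nearest to the distal start was FM-only, at 44821997 to 44822253, 7.50 kb away in the first part of Supt3, with a fold of 2.33 and a pileup of 68. The widest region of the whole domain lay inside Runx2, 79.3 kb from that start, at 44733972 to 44736701. It was shared and 2.73 kb wide, with pileups of 205 in FM and 157 in KO and folds of 2.91 and 2.66. The FM-only region of lowest q in Runx2 lay at 44586099 to 44587005, with a fold of 2.68 and a pileup of 102.

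Runx2 also held the shared region of the domain whose fold was lowest in FM relative to KO. At 44609612 to 44610318 the fold was 1.71 in FM and 3.38 in KO (log2 ratio -0.98), with pileups of 78 and 100. The local background there was 45.1 fragments in FM and 28.8 in KO, so the 2 parts of the fold moved in opposite directions.

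Supt3 differed between its start and its body. The region over its start, at 44776663 to 44777914, was shared, with a pileup of 350 in FM and 492 in KO and folds of 5.82 and 8.47 (log2 ratio -0.54). This was the highest KO fold of the domain, and it was higher in KO than in FM. From the end of that region to 44973522, a stretch of 195.6 kb along the first part of Supt3, the KO list had no peak.

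That stretch held 22 FM-only regions, the longest run of them in the domain, with folds from 1.79 to 2.88, pileups from 52 to 84 and −log10 q from 2.92 to 14.6. The longest run in the 5 Mb after the domain was 6 regions, and the longest distance there between neighbouring regions with a KO peak was 57.5 kb. The 5 Mb before the domain held a run of 20 FM-only regions, from 42629386 to 42742288, and a gap of 1262 kb without a KO peak in DNA that also lacked FM peaks, so neither feature was confined to the domain. The FM-only region of lowest q in the stretch, at 44791726 to 44792343, lies where Supt3 and Runx2 overlap and had a fold of 2.88 and a pileup of 84. Over its whole 342.2 kb, Supt3 overlapped 6 shared, 46 FM-only and 1 KO-only region. The overlap of Runx2 and Supt3, 44777118 to 44814797, held 1 shared and 4 FM-only regions that are counted for both genes.

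Rcan2 overlapped 11 shared, 38 FM-only and 2 KO-only regions in 238.2 kb. Its first start was covered by a shared region at 43801098 to 43802519 with pileups of 327 in FM and 238 in KO and nearly equal folds of 5.53 and 5.32. A further start, at 43952999, had a shared region with pileups of 169 and 129 and folds of 3.94 and 4.10. All 11 shared regions of Rcan2 had the higher pileup in FM, as had 143 of 159 in the whole domain and 57.4% on all chromosomes. The shared region of Rcan2 with the highest ratio of FM to KO fold lay at 43832345 to 43833258. It had folds of 3.11 and 1.71 and pileups of 91 and 50.

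Clic5 overlapped 11 shared, 27 FM-only and 1 KO-only region. The region over its start, at 44188045 to 44189408, had pileups of 144 in FM and 104 in KO and folds of 4.20 and 3.52. Its 1 KO-only region, at 44261746 to 44262224, was the KO-only region of lowest q in the domain, with a fold of 2.89, a pileup of 134 and a −log10 q of 23.5. Clic5 thus held both a surplus of weak FM-only regions and the KO-only region of lowest q.

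The other genes of the domain held fewer regions. Of 18 protein-coding genes, 16 had more FM-only than KO-only regions, 1 had equal numbers and 1, Ankrd66, had 0 FM-only and 3 KO-only regions. Of all protein-coding genes with a region, 59.0% had more FM-only regions. Among genes with at least 5 regions it was 14 of 15 in the domain and 82.8% on all chromosomes, so most genes of that size had such a surplus anywhere. The death receptor gene Tnfrsf21 had 5 shared, 9 FM-only and 0 KO-only regions. The adhesion receptor genes Adgrf1 and Adgrf5 had 8 and 16 FM-only regions and 1 and 4 KO-only regions. Adgrf5 held the FM-only region of highest fold, 2.99 at 43375374 to 43376259. The metalloprotease gene Mep1a had 5 FM-only and 0 KO-only regions.

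Several genes had smaller surpluses. Pla2g7, which encodes platelet-activating factor acetylhydrolase, had 6 FM-only and 2 KO-only regions. Tdrd6, a germ cell gene, had 4 and 1, the mitochondrial carrier gene Slc25a27 had 3 and 1, and Cyp39a1, an oxysterol hydroxylase gene, had 13 and 3. Cdc5l had 4 and 3, a share of 57.1% that is below that of all chromosomes, and Spats1 had 9 and 1.

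**Figure D3:**
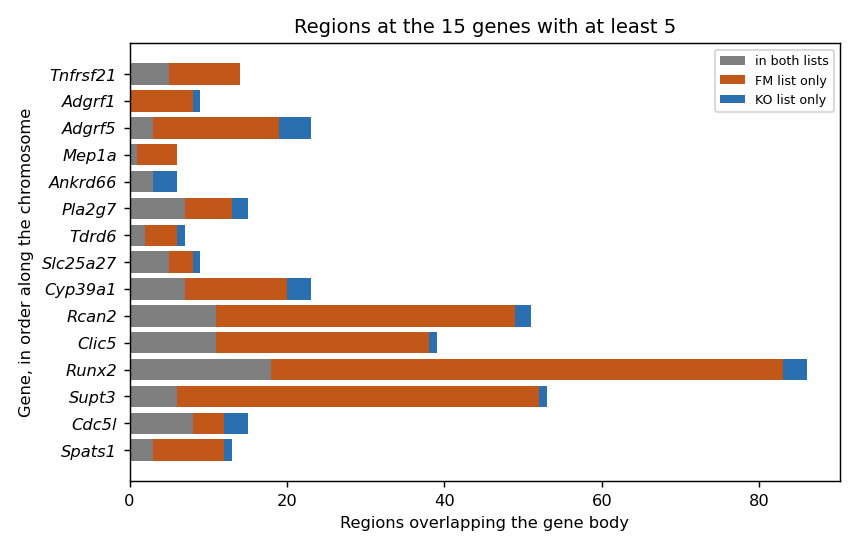
Regions overlapping each of the 15 protein-coding genes of the domain with at least 5 regions, in order along the chromosome, stacked as shared, FM-only and KO-only. Runx2, Supt3, Rcan2 and Clic5 hold 65, 46, 38 and 27 FM-only regions, and Ankrd66 is the 1 gene with KO-only regions in excess.

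FM-only regions lay both inside and outside gene bodies. Protein-coding genes cover 61.9% of the domain and held 60% of the FM-only, 64.3% of the KO-only and 56.6% of the shared regions. The 215.8 kb between Clic5 and Runx2 held 8 shared, 44 FM-only and 3 KO-only regions. The 272.6 kb between Supt3 and Cdc5l held 31, 58 and 3. The FM-only region of lowest q in the domain lay there, 1.16 kb from the end of Cdc5l at 45390457 to 45390917, with a fold of 2.59 and a pileup of 137.

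Where a gene start had a region, it was mostly a shared one. Of 29 annotated start windows in the domain, 17 overlapped a region and 13 of these windows overlapped a shared region, 10 distinct shared regions in all. The shares over all annotated starts were not computed, so these counts do not set the domain apart. The start of Tnfrsf21 had pileups of 275 in FM and 236 in KO. A region over the adjoining ends of Slc25a27 and Cyp39a1, which have no window of their own in the table of starts used, had 440 and 419. The start of Spats1, a gene of the testis, had 275 and 164. At Cdc5l, the region at 45432834 to 45434458 had a pileup of 309 in FM and 524 in KO and folds of 4.31 and 7.05 (log2 ratio -0.71). The starts of Supt3 and Cdc5l were therefore higher in KO, whereas the other starts with a shared region had the higher pileup in FM.

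The KO excess at these strong starts has a counterpart on all chromosomes. Among the 8204 shared regions with a −log10 q of at least 50 in FM, the median log2 ratio of FM to KO was -0.23 for fold and -0.35 for pileup. In the 8 such regions of the domain the medians were -0.10 and 0.10. The pileup was higher in FM at 6 of these 8 regions, and at 1314 of the 8204. The fold was higher in FM at 2 of the 8. With 8 regions and no interval, this is a description only.

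**Figure D4:**
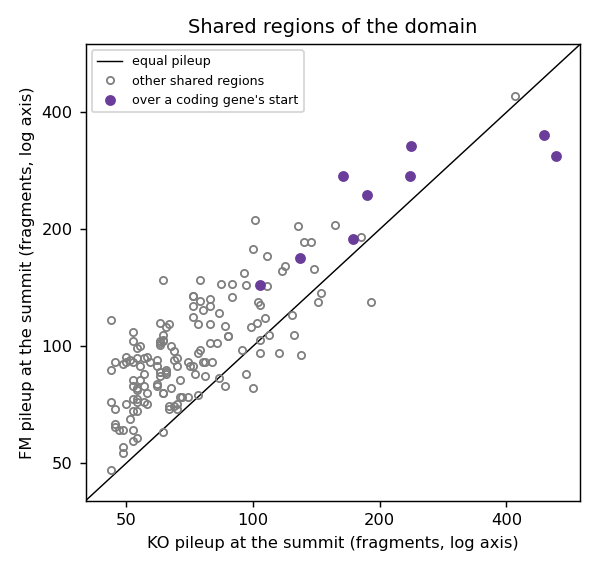
Pileup at the summit in fragments in the FM list (vertical) against the KO list (horizontal) for shared regions of the domain, both on log axes, with the line of equal pileup and regions over the start windows of protein-coding genes filled. Most points lie above the line, and the starts of Supt3 and Cdc5l lie below it with 492 and 524 fragments in KO.

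Shared regions gave a comparison at sites that both lists called. In the domain the median pileup was 94.0 fragments in FM and the median log2 ratio of FM to KO was 0.44 (order-statistic 95% interval over regions 0.39 to 0.49), a ratio of 1.35. The pileup was higher in FM at 143 of 159 shared regions, against 57.4% on all chromosomes. The local background that the peak caller set around each peak moved by nearly as much. Its median log2 ratio was 0.40 (0.38 to 0.44), and it was higher in FM at 154 of 159 regions, against 55.4% on all chromosomes. The fold, which divides the pileup by that background, had a median log2 ratio of 0.06 (0.00 to 0.13) and was higher in FM at 95 of 159 regions, against 49.4% on all chromosomes.

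The fold of shared regions was thus nearly equal between the lists while the fragment count and the background around it were both about 1.3 times higher in FM. In the 5 Mb after the domain the median log2 ratio was 0.05 for pileup and 0.00 for background, and over all shared regions it was 0.07 and 0.04. The genome-wide background was 28.55 fragments in FM and 28.85 in KO. In the domain the local background around called peaks was thus raised together with the FM-only surplus, and its part in the result was not tested.

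The raised pileup and background were wider than the domain, and a difference in DNA copy number between the lines over this stretch was not tested. In bins of 1 Mb with at least 20 shared regions, 13 of the 17 bins between 29 and 46 Mb of chromosome 17 had a median log2 pileup ratio from 0.31 to 0.52. The other 4 had too few shared regions. The 50 remaining bins of the chromosome with enough regions ran from -0.39 to 0.22. The bounds of 29 and 46 Mb lie where the ratio steps, so the gap between these sets of bins follows from their choice. For the background, the 13 bins ran from 0.10 to 0.55 and the others reached 0.17, so those ranges overlapped. Between 29 and 43 Mb the pileup and the background each had a median log2 ratio of 0.44, with a fold ratio of -0.00 and an FM-only share of 84.0%. Over 29 to 46 Mb, the domain included, the medians were 0.43 for pileup, 0.44 for background and 0.00 for fold. FM-only means that no KO peak passed the threshold there, not that KO fragments were absent. From 46 Mb to the end of the chromosome the pileup ratio was 0.00 and the share was 65.9%. At the right end the pileup ratio was 0.47 in the first 0.25 Mb after the domain and 0.13 in the next.

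**Figure D5:**
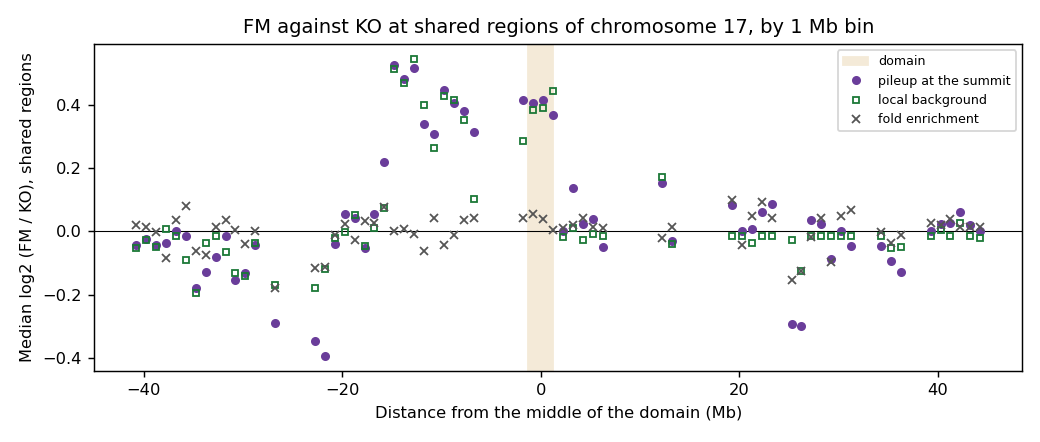
Median log2 ratio of FM to KO at shared regions in 1 Mb bins of chromosome 17, by distance in Mb from the middle of the domain (shaded). Filled circles give the pileup at the summit, open squares the local background and crosses the fold enrichment. Pileup and background are raised together from well left of the domain to just past its right end, and bins farther right lie around 0.

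The domain was also set beside the 652 windows of 2.5 Mb, on all chromosomes, with at least 50 specific and 20 shared regions. Their median FM-only share was 76.6%. The domain was chosen for this share, so its place among the windows is a description only. The 2 windows with a higher share than the domain were chromosome 4 from 103 to 105.5 Mb (92.1%) and chromosome 9 from 115.5 to 118 Mb (91.4%). Their log2 ratios at shared regions were 0.10 and 0.08 for pileup and 0.05 and -0.0056 for background. In the domain these ratios were 0.44 and 0.40. How the share and these ratios are related was not tested. The 1 window with a higher pileup ratio than the domain was also on chromosome 17, from 30.5 to 33 Mb (0.46), with a share of 83.0%. For the fold ratio, 42 windows were higher.

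FM values in the domain were then scaled down, as an alternative chosen after the data were seen. FM pileup in the domain was divided by 1.29, the excess of pileup in the domain over all shared regions. The background was divided by the same ratio but was not let fall below the genome-wide 28.55 fragments. FM peaks that no longer reached the lowest p in the list were dropped. This left 506 of 581 FM peaks, 348 FM-only and 47 KO-only regions, a share of 88.1% (84.5 to 91.1) and 2.44 FM peaks per KO peak. Of the 75 peaks lost, 70 had no KO partner. The minimum peak width was not applied again, and applying it could only have added to the number lost. The pileups of all FM peaks of the domain took the same ratio, and the KO list was left as it was. A local difference in copy number or background between the lines was therefore not tested by this.

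The paralogous segments also had more FM-only than KO-only regions, with shares that were not tested against the domain or the genome. Runx1, Clic6 and Rcan1 on chromosome 16 had 21, 8 and 11 FM-only and 8, 1 and 2 KO-only regions. Runx3, Clic4 and Rcan3 on chromosome 4 had 6, 3 and 6 FM-only and 0, 2 and 0 KO-only regions. The FM-only share was 78.4% (64.7 to 88.7) over the 3 genes on chromosome 16 and 88.2% (63.6 to 98.5) over those on chromosome 4, and both intervals include the 73.2% of all chromosomes. Per 100 kb, Runx1 had 9.35 FM-only regions and Runx3 10.5, against 20.4 in Runx2. Their median log2 pileup ratios at shared regions were 0.13 for Runx1 and 0.29 for Runx3, against 0.44 in Runx2.

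The genes of the related pathways lay outside the domain. Over 18 osteoblast genes there were 39 shared, 12 FM-only and 8 KO-only regions, an FM-only share of 60%, and 3 genes, Spp1, Ibsp and Mmp13, had no region. Sp7, the osteoblast factor downstream of Runx2, had 3 shared and 1 FM-only region, and Cbfb, the DNA-binding partner of Runx proteins, had 1 shared region. Over 14 SAGA genes there were 37 shared, 38 FM-only and 17 KO-only regions (69.1%), and over 9 calcineurin genes there were 45, 58 and 20 (74.4%). Set beside 73.2% on all chromosomes, none of the 3 lists had a share near the domain's 90.9%. The calcineurin list includes Rcan1 and Rcan3.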

How the data were processed

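ATAC-seq was done on 3 libraries of each group. Per the submitters' processing notes, bcl2fastq, Bowtie2, SAMtools and MACS2 were used with mm10. Left unnamed there and in the labels are versions, how the 3 libraries were combined, duplicate filters, any Tn5 shift and the peak caller's settings. The deposited peak lists (279817 rows in FM, 191107 in KO) give for each peak a score, a fold (a ratio of pileup to local background), a −log10 p and a −log10 q as the authors' peak caller wrote them. The lowest −log10 q in each deposited list was 1.30, a q of 0.05. Depth in reads is unknown.

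Rows with the same start and end were reduced to 1, that of lowest p, and peaks of both lists were merged into regions. Pileup and local background were solved from fold and p. Pileups came out within 0.02 of a whole number for 99.99% of FM and 99.95% of KO peaks. The 20 FM and 76 KO peaks with no solution were left out of pileup values, and those values compare between lists only if both were called with the same fragment extension. The solver and the overlap code were tested on simulated data. A region takes each list's peak of highest fold. Shares have exact binomial (Clopper-Pearson) 95% intervals and medians have order-statistic intervals over regions. No test between groups was possible with 1 list per group. Gene models, starts and sequences are RefSeq's on GRCm38.p6. Python 3.11.15, numpy 2.4.6, pandas 2.3.3, scipy 1.17.1 and matplotlib 3.10.9 were used.

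Named items were every protein-coding gene of the domain with at least 5 regions, the Runx, Clic and Rcan paralogues, regions at starts and ends of Rcan2, Runx2 and Supt3, and the regions of lowest q in each class. The regions of most extreme log2 fold, the widest region and the KO-free stretch were picked after their values were seen. The members and gene lists were chosen with earlier results of these data known. Alternatives were a q threshold, equal list lengths, a 50% overlap, other edges and flanks, every row, and summits within 200 bp; a scaled FM list was added after seeing the data.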

Additional observations from a re-analysis of the deposited data

How the results depend on the processing

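The FM-only share of the domain was between 88.1% and 91.1% with peaks of −log10 q 5 and higher only, edges moved inward by 0.25 Mb, an overlap of at least 50%, or the scaled FM list. With the 50000 peaks of lowest p from each list it was 81.4% (70 FM-only and 16 KO-only regions) in the domain and 58.1% (154 and 111) in the flanks, and there were 1.86 FM peaks per KO peak in the domain (117 and 63). With flanks of 2.5 Mb the flank share was 79.3%. The median log2 fold ratio of shared regions changed sign between settings: it was -0.051 in the domain and -0.044 in the flanks with a −log10 q of at least 5, and -0.10 and -0.12 with 50000 peaks, against 0.056 and 0.015 with the lists as deposited. FM peaks per KO peak were 3.25 with the q threshold, 2.94 with the inner edges and 2.68 with every row counted. No paired analysis was possible because each group has 1 peak list, which carries no replicates; leaving out a library could not be done for the same reason. Without read counts, an FM-only region is one where no KO peak passed the caller's threshold, and the level of KO fragments there is unknown.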
